A study of Mus musculus with 74 samples.

Results

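The 10 genes described here, Prss2, Ctrb1, Cela1, Cela3b, Cpa1, Clps, Pnliprp1, Pla2g1b, Cel and Sycn, encode digestive enzymes, an enzyme cofactor and a granule protein of the pancreatic acinar cell. They were taken by name from 6 count tables of medullary thymic epithelial cells, which together list 17853 genes. The set was chosen with earlier results of these data known. Of the 10, 9 were listed in every table and 1, Cpa1, was missing from a pair of tables. The cells, labelled mTEChi, were sorted from thymi of mice aged 4 to 7 weeks that carried different Aire alleles, and their RNA was read from transcript 3′ ends by MARS-seq. The 74 libraries included 73 that fell into 21 groups and 1 whose labels disagreed, which entered no comparison. In the main comparisons no gene of the set was called higher, at an adjusted p under 0.05. Of 9 tested genes, 7 to 9 were called lower in C57BL/6 homozygotes for the null, Y86C, C313X or C442G allele and in NOD null homozygotes. Over all tested genes, 9.11% to 27.9% were called lower in these groups. With 1 C313Y allele beside a normal one 8 were called lower, against 11% of all tested genes. With C313Y beside a null allele 9 were, against 12.9%. In the V303M groups and in C57BL/6 heterozygotes for the null, Y86C, C313X or C442G allele, fewer were called lower, as given below.

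The C57BL/6 (B6) mice came from 4 lines, each with its own wild-type libraries. The null line gave 3 +/+, 5 +/- and 4 -/- libraries, the Y86C line 3 of each genotype, the C313X line 3 +/+, 2 +/C313X and 3 C313X/C313X, and the C442G line 3 +/+, 5 +/C442G and 6 C442G/C442G. On the NOD background the V303M line gave 3 libraries of each genotype. A null set held 3 +/- and 3 -/- libraries and no wild type, so that its controls carried 1 null allele. A further set compared 5 +/+ with 4 +/C313Y libraries, and 2 of those 5 wild types are titled C313T. The last set compared 3 +/+ with 3 -/C313Y libraries, from mice with a null allele opposite the C313Y allele. Nothing in the labels says whether libraries came from separate or pooled animals, so p-values measure only the spread between these libraries.

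AIRE is a transcriptional regulator of mature medullary thymic epithelial cells, where it raises the transcription of many genes that are otherwise restricted to single peripheral tissues. Each such gene is read in a small share of the cells, and the proteins are shown to developing T cells. In the pancreas, acinar cells store digestive proteases and lipases in zymogen granules, and a complex of PTF1A with an RBPJ-family protein drives many of these genes from a paired E-box and TGGGAA element. Y86C lies in the CARD domain of AIRE, V303M and the C313 alleles in the first PHD finger and C442G in the second.

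The promoters of 4 of the genes are shown as examples. Prss2 and Cela1 hold a TATA box, Ctrb1 was the most abundant transcript, and Cel holds the most E-boxes. Each runs from 250 bases before to 50 bases after the RefSeq start site in build GRCm38.p6, and capitals mark 3 short motifs on either strand: a TATA box (TATAAA), an E-box (CACCTG) and the element TGGGAA, bound by RBPJ-family proteins. Prss2 lies at chr6:41521526-41521825 on the + strand, Cela1 at chr15:100687871-100688170, Ctrb1 at chr8:111690961-111691260 and Cel at chr2:28563354-28563653, all 3 on the - strand.
Prss2: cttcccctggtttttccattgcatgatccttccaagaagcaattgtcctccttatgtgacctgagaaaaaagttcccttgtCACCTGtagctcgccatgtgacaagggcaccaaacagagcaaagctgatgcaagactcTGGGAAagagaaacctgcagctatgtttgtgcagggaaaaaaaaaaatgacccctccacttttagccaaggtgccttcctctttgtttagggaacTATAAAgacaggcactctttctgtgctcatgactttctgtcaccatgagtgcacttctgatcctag
Cela1: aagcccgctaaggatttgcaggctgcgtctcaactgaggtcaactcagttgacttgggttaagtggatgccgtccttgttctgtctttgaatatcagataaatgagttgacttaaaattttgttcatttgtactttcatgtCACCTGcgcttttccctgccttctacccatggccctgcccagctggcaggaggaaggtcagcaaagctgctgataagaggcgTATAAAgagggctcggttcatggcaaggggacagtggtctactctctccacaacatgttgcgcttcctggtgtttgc
Ctrb1: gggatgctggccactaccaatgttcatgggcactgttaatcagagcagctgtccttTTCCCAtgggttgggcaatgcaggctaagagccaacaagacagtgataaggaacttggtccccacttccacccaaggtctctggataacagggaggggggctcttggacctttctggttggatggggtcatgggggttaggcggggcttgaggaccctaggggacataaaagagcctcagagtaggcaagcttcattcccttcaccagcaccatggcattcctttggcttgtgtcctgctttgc
Cel: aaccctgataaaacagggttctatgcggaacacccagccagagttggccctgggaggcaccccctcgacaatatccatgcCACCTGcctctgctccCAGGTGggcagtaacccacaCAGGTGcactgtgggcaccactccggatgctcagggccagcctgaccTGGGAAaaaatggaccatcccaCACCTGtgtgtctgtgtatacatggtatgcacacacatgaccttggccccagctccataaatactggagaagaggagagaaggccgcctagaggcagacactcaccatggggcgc

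RefSeq gave a promoter for 9 of the 10 genes (all but Clps). The TATA box TATAAA was found in 2 of the 9, at -16 in Prss2 and -27 in Cela1, counted from the start site, against 13.6% of 32851 promoters. The E-box CACCTG was found in 4 of the 9, against 20.2% of promoters. Cel held 4 copies, Cela3b 2, and Prss2 and Cela1 1 each. The element TGGGAA was found in 6 of the 9 against 25.6%, and an E-box and TGGGAA stood together in 2, Prss2 and Cel. No matches overlapped. These letters are a description of the windows and show no binding.

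The genes are scattered over 9 chromosomes, with Prss2 and Cpa1 both on chromosome 6 (GENCODE vM21, GRCm38). Prss2, at chr6:41521787-41525079, lies inside the T cell receptor beta locus, between a row of other trypsin genes and Trbd1, and its counts can be shared with those near-identical trypsins. Sycn (chr7:28540885-28542209) overlaps Samd4b on the other strand and Cel (chr2:28555795-28563403) overlaps the antisense gene Gm13381. The use of strand in counting is not given in the sources used here, so values of Sycn and Cel cannot be told apart from those of these neighbours.

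Library totals ran from 1016619 to 7225403 counts. Aire itself checks no label, since the position of the null deletion is not given in the labels and 3′ tags can persist. Its level in the B6 null line was 2125 ± 79.4 CPM (counts divided by the library's total and multiplied by 1e6; SD, n = 3) in +/+ and 3162 ± 364 CPM (n = 4) in -/-. Aire was called higher in 9 of the 13 comparisons, by 0.68 on the log2 scale in B6 -/-, by 1.32 in Y86C/Y86C and by 0.62 in +/C313Y. Of the 10 mTEChi markers, which include Aire, 8 were called higher and 0 lower in B6 -/-. In Y86C/Y86C 8 were called higher and 1 lower. Of all tested genes, 17.7% were called higher and 18.9% lower in B6 -/-, and 21.7% and 27.9% in Y86C/Y86C. The summed level of the mTEChi markers ran from 27261 to 31593 CPM in Y86C +/+ and from 47925 to 52851 CPM in Y86C/Y86C. The sum of 7 cortical epithelial markers was also higher, at 6409 to 7436 CPM in Y86C/Y86C against 3300 to 3736 CPM in Y86C +/+, although of 5 tested 2 were called higher and 2 lower. The summed thymocyte markers stayed between 107 and 341 CPM in all groups, with 1 of the 12, Rag2, without a count in the tables used here. In bulk RNA, fewer cells that express a gene and less RNA per cell cannot be told apart. The part of these shifts in the results below was not tested.

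The first question was how much acinar enzyme message the wild-type cells held. MARS-seq tags 1 end of each transcript, so counts of different genes can be set side by side without a length correction. Summed over the 9 genes, B6 wild types had 316 ± 40.4 CPM in the null line, 531 ± 63.4 CPM in the Y86C line, 343 ± 54.9 CPM in the C313X line and 603 ± 56.1 CPM in the C442G line (SD, n = 3 each). NOD controls had 273 ± 12.4 CPM (V303M line, n = 3), 239 ± 21.9 CPM (+/- of the null set, n = 3), 177 ± 54.6 CPM (+/C313Y set, n = 5) and 226 ± 10.9 CPM (-/C313Y set, n = 3). These tables were counted separately, so the difference between lines was not tested. Ctrb1, a chymotrypsinogen, was the most abundant gene of the set in 55 of 74 libraries. Prss2 led in 9, Pla2g1b in 6 and Clps in 4.

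**Figure D1:**
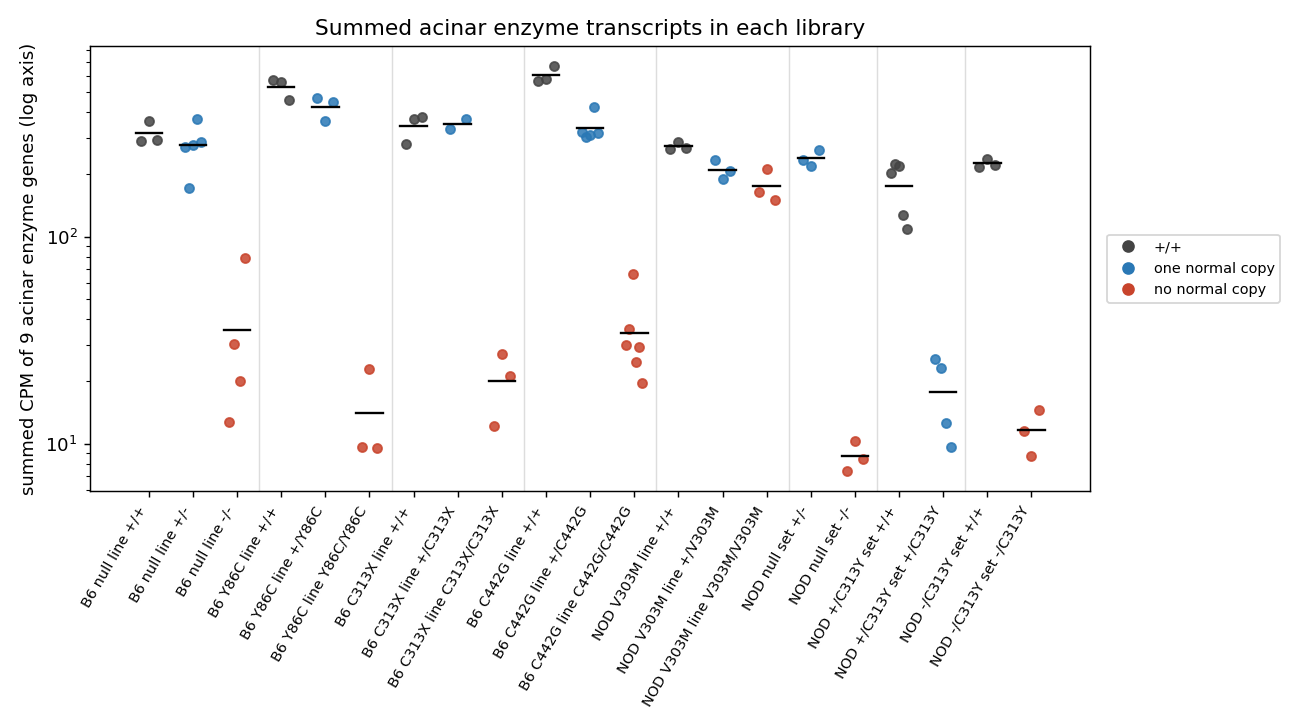
Summed CPM of the 9 acinar enzyme genes listed in all tables, on a log axis, for each library (points) with the group mean (line). Libraries with no normal Aire copy sit between 7.38 and 78.8 CPM in every line but V303M, and +/C313Y libraries, which keep 1 normal copy, sit between 9.63 and 25.8 CPM.

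The homozygous and null groups were set against their controls to see how far the whole set depended on AIRE. The controls were the wild type of their own table, or +/- for NOD -/-. The sum fell from 316 ± 40.4 to 35.5 ± 29.7 CPM in B6 -/- (n = 4), which left 11.2% of the wild-type level. It fell to 14.03 ± 7.71 CPM in Y86C/Y86C (2.64% left, n = 3), to 20.2 ± 7.55 CPM in C313X/C313X (5.88%, n = 3) and to 34.3 ± 16.6 CPM in C442G/C442G (5.70%, n = 6). In NOD -/- it was 8.70 ± 1.46 CPM (n = 3), or 3.64% of the level in +/-. No library of these 5 groups reached the lowest of its controls in the sum. These values describe the set and carry no test of their own.

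Gene by gene, edgeR's quasi-likelihood test with Benjamini-Hochberg adjustment over all tested genes (adjusted p under 0.05) called 7 of the 9 lower in B6 -/-, where 18.9% of all tested genes were called lower. It called 9 of 9 lower in Y86C/Y86C (27.9% of all genes), in C313X/C313X (15.2%), in C442G/C442G (23.1%) and in NOD -/- against +/- (9.11%). The median log2 fold change of the 9 genes was -4.87 in B6 -/-, -5.20 in Y86C/Y86C, -5.39 in C442G/C442G and -4.42 in NOD -/-. In C313X/C313X it was -5.69, or -4.66 with the 3 genes at 0 counts placed at their lower bounds. The median over all tested genes lay between -0.03 and 0.01 in all 13 comparisons. None of the 9 genes was called higher in any of the 13 by edgeR or by DESeq2, and at an unadjusted p under 0.05 only Sycn in +/C313X was. The shares of all tested genes called higher were 17.7% in B6 -/-, 21.7% in Y86C/Y86C, 7.85% in C313X/C313X, 19.5% in C442G/C442G, 4.21% in NOD -/-, 6.36% in +/C313Y and 9.83% in -/C313Y. They were 0.378% in B6 +/-, 2.32% in +/Y86C, 0% in +/C313X, 13.1% in +/C442G, 0.0146% in V303M/V303M and 0% in +/V303M.

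**Figure D2:**
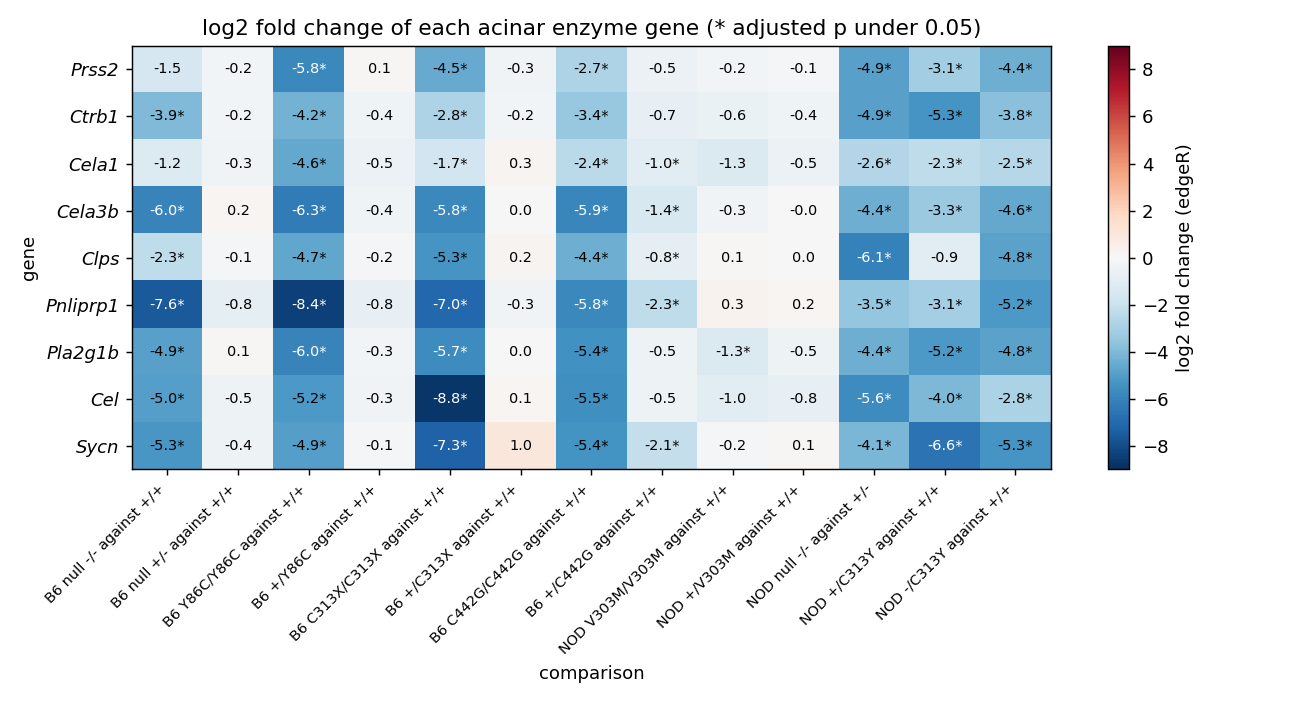
log2 fold change (edgeR) of each of the 9 tested genes (rows) in each of the 13 comparisons (columns), with a star where the adjusted p was under 0.05. The 6 comparisons with no normal copy outside V303M, and +/C313Y, are blue in all 9 rows, while 4 of the other columns hold no star.

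Among the proteases, Cela3b, a chymotrypsin-like elastase, was the most evenly lost in B6. It measured 22.6, 33.7 and 31.9 CPM in the +/+ libraries of the null line and 0.376, 0.401, 0.514 and 0.276 CPM in the -/- libraries. The groups were far apart, and the fold change was -5.98 ± 0.43 on the log2 scale (SE, adjusted p = 9.82e-12). Cela3b was at 36.8, 47.1 and 56.5 CPM in C313X-line wild types and at 0.270, 1.60 and 0.316 CPM in C313X/C313X. In the NOD null set it read 15.3, 29.2 and 26.0 CPM in +/- and 0.434, 1.19 and 1.302 CPM in -/-. The NOD log2 fold change was -4.42 ± 0.54 (adjusted p = 1.76e-06).

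Ctrb1 kept a small but measurable level where other members were near 0. In the C442G line it was 193.6, 210.5 and 237 CPM in +/+. The 6 C442G/C442G libraries ran from 6.45 to 48.3 CPM with a mean of 17.5 ± 16.1 CPM, and the log2 fold change was -3.40 ± 0.50 (adjusted p = 0.000134). C313X/C313X libraries held 6.21, 19.2 and 12.7 CPM against 78.2, 108.8 and 109.96 CPM in +/+. That log2 fold change, -2.80 ± 0.32, was the smallest for Ctrb1 among the 5 homozygous groups above. In B6 -/- it held 3.76, 6.81, 6.16 and 5.25 CPM against 97.0, 88.1 and 83.98 CPM.

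Cela1, a second elastase, kept the largest share of its control level in 5 comparisons. In B6 -/- it measured 0.751, 6.41, 5.14 and 3.32 CPM, against 6.56, 10.1 and 12.4 CPM in +/+. No -/- library reached the lowest +/+ library, but the gene did not pass the test (log2 fold change -1.21 ± 0.54, adjusted p = 0.0930). With only the compared groups in the fit it passed, at -1.22. The mean was 40.4% of +/+ there, 26.8% in C313X/C313X, 16.5% in C442G/C442G and 15.5% in -/C313Y. In NOD -/- the mean was 14.1% of the level in +/-. The C313X/C313X call (-1.72 ± 0.45, adjusted p = 0.0182) was lost without replicate 1 or replicate 10 of that genotype. In Y86C/Y86C, by contrast, Cela1 was at 0.553, 0 and 0.998 CPM against 11.7, 12.8 and 18.4 CPM, a log2 fold change of -4.62 ± 0.50 (adjusted p = 3.44e-09).

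Prss2, an anionic trypsinogen, was the other gene not called in B6 -/-. It measured 41.2, 97.0 and 41.7 CPM in +/+ and 4.13, 5.21, 1.54 and 56.1 CPM in -/-. Replicate KO_436, with 203 of the group's 230 Prss2 counts, lay inside the wild-type range and the other 3 lay far below it. The log2 fold change was -1.48 ± 0.94 (adjusted p = 0.263) with all 4 libraries, and without replicate KO_436 it was -3.83 and called. In the same library Clps was also the highest of the 4 -/- libraries at 12.99 CPM, whereas Cela3b, Pla2g1b and Sycn were each at 0.276 CPM. The other lines showed no such library: Prss2 was at 0.830, 1.76 and 0 CPM in Y86C/Y86C (68.1, 77.3 and 64.6 CPM in +/+), and at 1.89, 2.24 and 1.58 CPM in C313X/C313X (33.1, 56.0 and 61.2 CPM in +/+). C442G/C442G kept more of it, from 1.36 to 12.2 CPM over 6 libraries.

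Cpa1, carboxypeptidase A, was too low for a test in any table. It had 2.55, 1.18 and 2.06 CPM in B6 null +/+ and 0, 0, 0 and 0.553 CPM in -/-. Pooled over libraries, the level was 10.9-fold lower in -/-, with an exact 95% interval of 2.48 to 99.8 that covers counting error only. In C313X/C313X it had 0 counts, at least 2.35-fold below the 7 counts in +/+, taking 3 counts over the group as the floor. No call was possible for Cpa1, and no other gene of the set was left untested.

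**Figure D3:**
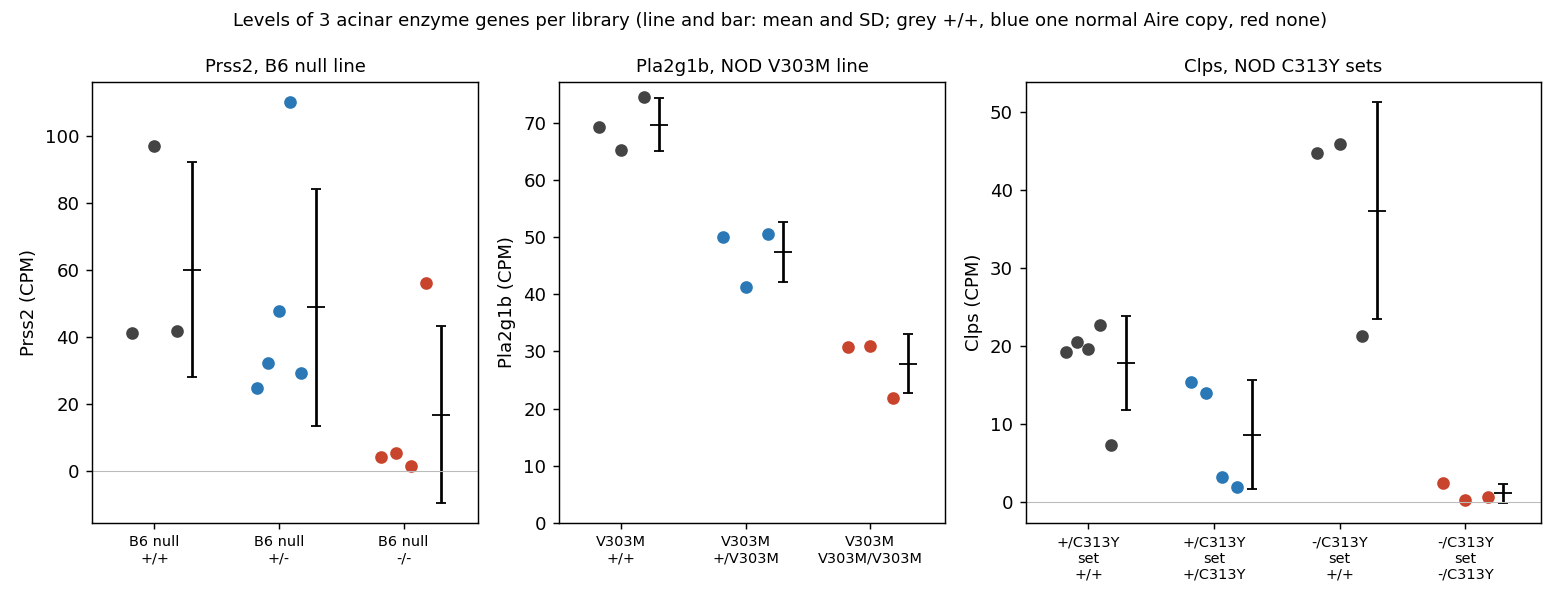
CPM per library (points) with the mean and SD beside them for Prss2 in the B6 null line, Pla2g1b in the NOD V303M line and Clps in both NOD C313Y sets. Prss2 in 1 -/- library stands at 56.1 CPM among wild-type values, Pla2g1b steps down from +/+ to +/V303M to V303M/V303M, and Clps in 2 of the 4 +/C313Y libraries stands at 14.1 and 15.4 CPM.

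Of the genes of lipid digestion, Pnliprp1 and Cel had 0 counts in some groups, as did Sycn and Cpa1 outside them. Pnliprp1, a lipase-related protein, had 9.85, 14.2 and 8.76 CPM in B6 null +/+ and 0 counts in all 4 -/- libraries, at least 39.1-fold lower. It also had 0 counts in Y86C/Y86C, at least 52.3-fold below 22.7, 17.8 and 11.7 CPM. In C313X/C313X it was again at 0, at least 20.9-fold below 7.36, 5.04 and 6.43 CPM. The 6 C442G/C442G libraries held 2 counts in all, a pooled ratio of 98.2 with a 95% counting interval of 26.2 to 827. In NOD -/- it was less complete, with 0.434, 0.395 and 0.651 CPM against 5.58, 7.20 and 6.23 CPM.

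Cel, the bile salt-dependent lipase, had 0 counts in the 3 C313X/C313X libraries against 15.6, 23.1 and 20.6 CPM in +/+, at least 66.0-fold lower. In B6 -/- it was at 0, 0.401, 1.54 and 0.276 CPM against 20.4, 16.6 and 14.4 CPM, a log2 fold change of -4.95 ± 0.60 (adjusted p = 1.85e-06). NOD -/- held a single Cel count, a pooled ratio of 70.0 with an interval of 12.3 to 2791.

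Pla2g1b, the pancreatic phospholipase A2, was among the most precisely measured genes of the set. It was at 51.4, 57.4 and 46.9 CPM in B6 null +/+ and at 2.63, 2.004, 2.05 and 0.276 CPM in -/-, a log2 fold change of -4.87 ± 0.30 (adjusted p = 3.74e-12). In Y86C/Y86C it held 1.38, 0.882 and 0.499 CPM against 84.7, 79.8 and 76.3 CPM (-6.03 ± 0.29, adjusted p = 6.99e-16). In NOD -/- it held 1.302, 1.98 and 3.25 CPM against 54.3, 43.2 and 46.9 CPM.

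Clps, the cofactor colipase, had 37.6, 34.3 and 39.7 CPM in B6 null +/+ and 1.13, 8.82, 3.08 and 12.99 CPM in -/-. The groups did not overlap, and the log2 fold change was -2.28 ± 0.44 (adjusted p = 0.00167). In the other B6 lines Clps fell further, to 0.830, 2.94 and 4.49 CPM in Y86C/Y86C (72.1, 85.1 and 69.1 CPM in +/+) and to 0.810, 0.639 and 0.316 CPM in C313X/C313X (28.5, 23.7 and 33.8 CPM in +/+). NOD -/- held 2 Clps counts in all, a pooled ratio of 86.4 with an interval of 23.7 to 717.

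Sycn, a membrane-associated protein of the zymogen granule, had 5.11, 11.2 and 13.9 CPM in B6 null +/+ and 0, 0.401, 0 and 0.276 CPM in -/-, a pooled ratio of 50.5 with an interval of 13.4 to 426. It had 0 counts in C313X/C313X, at least 25.3-fold lower than +/+. In C442G/C442G it ran from 0 to 1.18 CPM over 6 libraries, against 16.0, 26.2 and 18.8 CPM in +/+ (log2 fold change -5.39 ± 0.49, adjusted p = 1.14e-09).

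The heterozygous groups asked whether 1 normal allele was enough. They share their wild-type libraries with the homozygous comparisons of the same line. In B6 +/-, the sum of the 9 genes was 276 ± 71.4 CPM (n = 5), 87.4% of +/+, and 0 of 9 genes were called lower against 0.102% of all tested genes. In +/Y86C it was 426 ± 56.9 CPM (n = 3, 80.2%), with 0 of 9 called against 1.04%. In +/C313X it was 352 ± 27.0 CPM (n = 2, 102.5%), with 0 of 9 called against 0%. At an unadjusted p under 0.05, edgeR had 1, 2 and 0 of the 9 genes lower in these 3 groups, and DESeq2 called 0, 0 and 0. Of all tested genes, 498 of 12700 were lower at that threshold in +/- and 941 of 13309 in +/Y86C. DESeq2 called 10 and 50 lower in these 2 groups. Over all genes in +/C313X, 228 were lower and 212 higher at an unadjusted p under 0.05, and DESeq2 called 0. Estimates ran from -0.78 to 0.18 in +/-, from -0.77 to 0.08 in +/Y86C and from -0.31 to 1.03 in +/C313X. Pnliprp1 had the lowest estimate in +/- (-0.78 ± 0.34, adjusted p = 0.462) and in +/Y86C (-0.77 ± 0.28, adjusted p = 0.143). Sycn had the highest in +/C313X, at 17.9 and 13.4 CPM against 9.20, 6.82 and 6.77 CPM in +/+, which did not pass the test (1.03 ± 0.37, adjusted p = 0.998).

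The +/C442G group differed. Its sum was 335 ± 50.2 CPM (n = 5), 55.6% of the 603 ± 56.1 CPM in +/+, and 5 of the 9 genes were called lower against 13.4% of all tested genes. The median log2 fold change was -0.80 and all 9 estimates were below 0. Cela3b was at 31.4, 29.2 and 37.0 CPM in +/+ and at 9.16, 10.8, 9.67, 9.55 and 15.7 CPM in +/C442G, with no overlap (-1.42 ± 0.21, adjusted p = 7.12e-06). Pnliprp1 went from 6.28, 13.4 and 5.12 CPM to 1.37, 1.73, 2.23, 1.43 and 1.23 CPM (-2.32 ± 0.41, adjusted p = 6.49e-05). Sycn went from 16.0, 26.2 and 18.8 CPM to 5.04, 1.296, 5.95, 2.15 and 7.09 CPM (-2.14 ± 0.37, adjusted p = 8.99e-05). In both genes the 2 groups lay apart.

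Clps (-0.80 ± 0.17, adjusted p = 0.000682) and Cela1 (-0.97 ± 0.30, adjusted p = 0.0170) were also called in +/C442G. The Cela1 call was lost without +/+ replicate 88 or 89. Prss2 (-0.50 ± 0.38), Ctrb1 (-0.72 ± 0.47), Pla2g1b (-0.46 ± 0.18) and Cel (-0.46 ± 0.27) did not pass, with adjusted p from 0.0671 to 0.372. Pla2g1b passed without +/+ replicate 86 (-0.66), with RLE factors (-0.51), in DESeq2 (-0.50) and with only the compared groups in the fit (-0.47). Ctrb1 passed with only the compared groups (-0.73). Of the 10 mTEChi markers, 5 were called higher in +/C442G, against 13.1% of all tested genes. The sum of the 10 ran from 32708 to 53628 CPM against 29217 to 38553 CPM in +/+. The part of this shift was not tested.

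**Figure D4:**
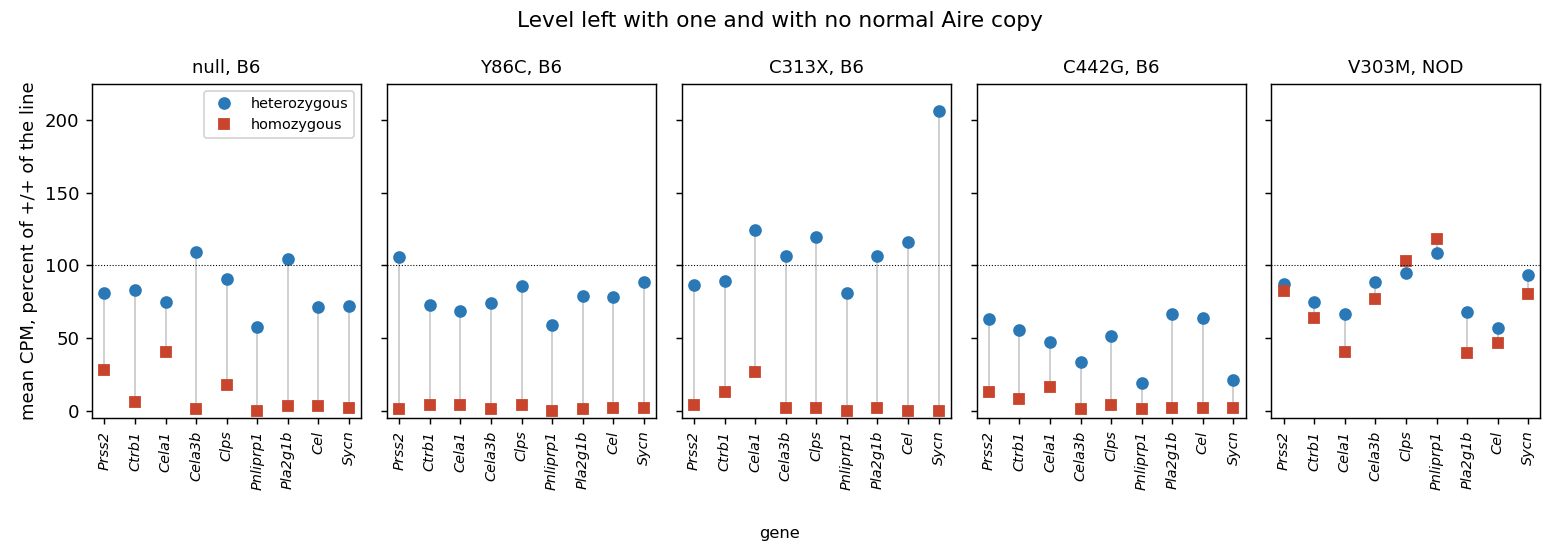
Mean CPM of each of the 9 genes as a percent of the +/+ of its line, in heterozygous (circles) and homozygous (squares) mice, with a dotted line at the wild-type level. Circles sit between 19.4% and 66.7% in the C442G panel, and squares sit between 39.9% and 118% in the V303M panel and at or below 40.4% in the other panels.

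The V303M allele left most of the message in place. The sum was 273 ± 12.4 CPM in +/+, 211 ± 22.2 CPM in +/V303M (77.2%) and 176 ± 31.9 CPM in V303M/V303M (64.4%; n = 3 each). In V303M/V303M 1 of the 9 genes was called lower, against 0.0511% of all tested genes, and in +/V303M 0 of 9 against 0%. Pla2g1b was that gene, with 69.3, 65.3 and 74.5 CPM in +/+, 50.1, 41.3 and 50.6 CPM in +/V303M, and 30.8, 30.9 and 21.9 CPM in V303M/V303M. The 3 genotypes did not overlap. The homozygous log2 fold change was -1.28 ± 0.16 (adjusted p = 0.00679) and the heterozygous one -0.47 ± 0.17, which did not pass (adjusted p = 1). Without V303M/V303M replicate 53 the homozygous value was -1.15 and was no longer called.

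Cela1 (-1.30 ± 0.36, adjusted p = 0.306), Cel (-1.02 ± 0.30, adjusted p = 0.366) and Ctrb1 (-0.60 ± 0.20, adjusted p = 0.499) had estimates below 0 in V303M/V303M without passing. At an unadjusted p under 0.05, edgeR had 4 of the 9 genes lower in V303M/V303M and 2 in +/V303M, and DESeq2 called 1 and 0. In V303M/V303M, 532 of all 13700 tested genes were lower and 263 higher at that threshold, and DESeq2 called 31 lower and 10 higher. Over all genes in +/V303M, 310 were lower and 189 higher at an unadjusted p under 0.05, and DESeq2 called 1 lower and 1 higher. Pnliprp1 stood at 8.74, 11.50 and 9.93 CPM in V303M/V303M against 7.52, 8.30 and 9.76 CPM in +/+, ranges that overlap. Clps stood at 17.5, 31.6 and 24.8 CPM against 20.5, 21.5 and 29.9 CPM, also overlapping.

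The C313Y allele was studied with a normal and with a null partner allele. In +/C313Y the sum of the 9 genes was 17.8 ± 7.88 CPM (n = 4) against 177 ± 54.6 CPM in +/+ (n = 5), or 10.1%. The test called 8 of 9 genes lower, against 11% of all tested genes, with a median log2 fold change of -3.34. In -/C313Y the sum was 11.6 ± 2.89 CPM against 226 ± 10.9 CPM (5.12%, n = 3 each). All 9 tested genes were called lower there, against 12.9% of all genes, with a median of -4.60. The wild types of the +/C313Y set were uneven, with sums of 203, 224.5, 219, 127.5 and 108 CPM, and the lowest of them lay above the highest +/C313Y library at 25.8 CPM.

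Among the proteases in +/C313Y, Ctrb1 was at 1.79, 0.760, 0.810 and 1.20 CPM against 62.4, 54.9, 66.0, 42.7 and 25.3 CPM in +/+ (log2 fold change -5.30 ± 0.43, adjusted p = 3.17e-09). Prss2 was at 2.86, 3.42, 3.65 and 2.41 CPM against 12.9 to 35.8 CPM (-3.11 ± 0.32, adjusted p = 3.85e-08). Cela3b (-3.34 ± 0.40) and Cela1 (-2.30 ± 0.46) fell as well. Of the lipid genes, Pla2g1b was at 1.43, 0.380, 0.810 and 0.401 CPM against 14.8 to 43.0 CPM (-5.15 ± 0.41, adjusted p = 5.38e-10). Sycn had 0 counts in all 4 +/C313Y libraries, at least 15.7-fold below +/+.

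Clps was the gene not called in +/C313Y. It stood at 15.4, 14.1, 3.24 and 2.01 CPM, against 19.2, 20.6, 19.6, 22.7 and 7.39 CPM in +/+. The ranges overlapped, because 2 +/C313Y libraries lay above the lowest wild type, and the log2 fold change was -0.94 ± 0.45 (adjusted p = 0.172). Set against all 8 NOD wild types of the table it was -1.4996 and called. In -/C313Y, Clps was at 2.52, 0.274 and 0.677 CPM against 44.7, 45.9 and 21.3 CPM (-4.80 ± 0.67, adjusted p = 2.17e-05). The 2 effects differed by -3.86 ± 0.85 (adjusted p = 0.0481), and 0.427% of all tested genes differed in either direction, 59 genes that became 21 to 143 with 1 library left out (without -/C313Y replicate 1 and +/C313Y replicate 50). That call was lost with DESeq2's size factors in edgeR, with no filter on low counts, without the libraries titled C313T, and without any of 11 single libraries, while the estimate stayed between -5.15 and -3.35 over all libraries left out.

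None of the other 8 genes was called different between the 2 C313Y effects by edgeR. Of the 9, 1 was lower and 1 higher at an unadjusted p under 0.05, and DESeq2 called 1. Of all 13827 tested genes, 810 were lower and 795 higher at that threshold, and DESeq2 called 87 lower and 104 higher. In -/C313Y, Pnliprp1 had 1 count in 3 libraries, a pooled ratio of 55.7 with an interval of 9.54 to 2247. Sycn also had 1 count (61.6, interval 10.6 to 2476). Cel kept 1.40, 0.822 and 1.35 CPM against 6.81, 11.9 and 10.2 CPM (-2.84 ± 0.50, adjusted p = 0.000117).

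Differences between B6 alleles were tested in 1 fit over the 4 B6 tables, with each allele's effect measured from its line's own +/+ libraries. The null effect enters every such difference, so they are not independent. Against the null, Y86C/Y86C lowered Cela1 further by -3.30 ± 0.90 (adjusted p = 0.0416) and Clps by -2.26 ± 0.61 (adjusted p = 0.0419), where 2% of all tested genes differed in either direction. Clps also differed for C313X/C313X (-2.91 ± 0.81, adjusted p = 0.0445, 2.69% of all genes) and for C442G/C442G (-2.05 ± 0.50, adjusted p = 0.0180, 2.91% of all genes). Each of these calls was lost without -/- replicate KO_429, and again without -/- replicate KO_436, when Clps differed by -1.57, -2.22 and -1.36 for the 3 alleles. The Y86C call for Cela1 was lost without any of 9 single libraries, and the Clps calls for Y86C and C313X each without any of 10, always with the same sign. The counts over all genes moved too: with 1 library left out they ran from 79 to 264 for Y86C (291 with all libraries, lowest without Y86C/Y86C replicate 4), from 162 to 928 for C313X (392, lowest without +/+ replicate 6 and highest without +/+ replicate 2) and from 217 to 456 for C442G (423, lowest without -/- replicate KO_429). The other 7 genes were called different for none of the 3 alleles by edgeR. In all, 3, 2 and 1 of the 9 genes were lower at an unadjusted p under 0.05 for Y86C, C313X and C442G. DESeq2 called 3, 1 and 1 lower. Over all 14547 tested genes, 928, 819 and 1151 were lower at that threshold, and DESeq2 called 186, 160 and 298 lower. Prss2 had estimates of -4.21 ± 1.38, -2.95 ± 1.22 and -1.19 ± 0.89, with adjusted p of 0.105, 0.195 and 0.544.

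Between heterozygotes, +/C442G lowered Cela3b more than +/- did, by -1.59 ± 0.34 (adjusted p = 0.00256), where 5.75% of all tested genes differed. Pnliprp1 (-1.53 ± 0.50, adjusted p = 0.0607) and Sycn (-1.69 ± 0.58, adjusted p = 0.0777) did not pass. For +/Y86C and for +/C313X 0 of 9 genes were called different from +/-, as were 0% of all genes in both by edgeR. For +/C313X the count over all genes depended on single libraries: it was 297 without +/+ replicate 2, 226 without +/C313X replicate 8 and 76 without +/+ replicate 7, while 0 of the 9 genes were called with any library left out. At an unadjusted p under 0.05, 0 of the 9 genes differed for +/Y86C and 1 was higher for +/C313X, and DESeq2 called 0 in both. Over all genes, 264 were lower and 276 higher at an unadjusted p under 0.05 for +/Y86C, where DESeq2 called 0. For +/C313X these counts were 499 and 828, and DESeq2 called 4 lower and 17 higher.

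Other products of the acinar cell were read from a list of 35 genes, 27 of which were listed in a table. Those called lower numbered 11 of 15 tested in B6 -/- (18.9% of all tested genes), 15 of 17 in Y86C/Y86C (27.9%), 16 of 19 in C313X/C313X (15.2%), 15 of 17 in C442G/C442G (23.1%) and 14 of 17 in NOD -/- (9.11%). They numbered 12 of 17 in +/C313Y (11%), 14 of 17 in -/C313Y (12.9%) and 10 of 17 in +/C442G (13.4%). None was called in +/-, +/Y86C, +/C313X or in either V303M group, and none was called higher in the 13 comparisons by edgeR or DESeq2, with 1 higher at an unadjusted p under 0.05 in +/C313Y and 1 in -/C313Y. At an unadjusted p under 0.05, 1 of 15, 8 of 17 and 2 of 19 tested were lower in +/-, +/Y86C and +/C313X. In V303M/V303M 5 of 18 were lower, and in +/V303M 0 of 18. Over all genes in that order they were 498 of 12700, 941 of 13309, 228 of 13626, 532 of 13700 and 310 of 13700. DESeq2 called 0, 1, 0, 1 and 0 of the list lower, against 10, 50, 0, 31 and 1 of all tested genes. The median log2 fold changes were -1.78, -4.14, -4.90, -3.22 and -3.84 in the 5 homozygous and null groups, in the order above. A gene could enter the test through its wild-type level alone, so these counts cover only the genes with enough counts.

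Zg16, a zymogen granule lectin, Prss1, a trypsinogen, Aqp12, an acinar aquaporin, and Cuzd1, a granule membrane protein, were called lower in 8 comparisons each. Cuzd1 went from 11.4 ± 1.88 CPM in Y86C +/+ to 0 counts in Y86C/Y86C, and from 9.45 ± 0.572 to 1.98 ± 1.16 CPM in +/C442G (log2 fold change -2.08 ± 0.39, adjusted p = 0.000147). Aqp12 went from 9.31 ± 4.15 to 0.201 ± 0.401 CPM in +/C313Y (-5.24 ± 0.72, adjusted p = 4.13e-06). Klk1, tissue kallikrein, and Rnase1, a secreted ribonuclease, were called lower in 7 comparisons and kept more. Klk1 was at 124 ± 11.4 CPM in B6 null +/+ and 69.2 ± 12.1 CPM in -/- (-0.75 ± 0.19, adjusted p = 0.00580). Rnase1 was at 32.5 ± 9.66 and 21.7 ± 2.03 CPM in +/+ and +/C313Y, which did not pass (-0.49 ± 0.18, adjusted p = 0.0678).

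The acinar protease Ctrl, chymotrypsin-like, did not behave in this way, and it was picked out after its values were seen. It was tested in all 13 comparisons and called in none. In Y86C/Y86C its log2 fold change was 0.49 ± 0.26 (adjusted p = 0.127), beside -4.23 ± 0.45 for Ctrb1.

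Of 15 transcription factors of the pancreas, 12 were listed in a table. Those called lower numbered 2 of 6 tested in B6 -/- (18.9% of all tested genes), 4 of 8 in Y86C/Y86C (27.9%), 2 of 9 in C313X/C313X (15.2%) and 5 of 10 in C442G/C442G (23.1%). They numbered 2 of 6 in each of NOD -/- (9.11%), +/C313Y (11%) and -/C313Y (12.9%). Called higher were 2 of 8 in Y86C/Y86C (21.7% of all tested genes), 2 of 10 in C442G/C442G (19.5%) and 1 of 6 in -/C313Y (9.83%). Ptf1a, the basic helix-loop-helix factor of acinar genes, was called lower in 5 of the 11 comparisons in which it was tested. It was at 6.41 ± 1.12 CPM in Y86C +/+ and 0.663 ± 0.585 CPM in Y86C/Y86C (log2 fold change -2.74 ± 0.54, adjusted p = 7.7e-05). The log2 fold change was -1.69 ± 0.39 in C313X/C313X and -1.87 ± 0.62 in C442G/C442G. In NOD -/- and in -/C313Y the adjusted p was 0.0468 and 0.0439. In +/C313Y, where 8 of the 9 enzyme genes were called lower, Ptf1a was at 5.86 ± 0.938 CPM against 6.07 ± 3.21 CPM (0.02 ± 0.34, adjusted p = 0.980).

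As a description across the 73 grouped libraries, the summed set was compared with every other gene by Pearson's r of log2(CPM + 1). These points share libraries, lines and Aire genotypes, so that any gene lost with AIRE scores high. The 5 genes outside the pancreas lists with the most similar pattern were Ptgds (r = 0.967), Klk1b4 (0.960), Ins2 (0.954), Obp2a (0.9505) and Klk1b22 (0.948), products of glands, islets and other peripheral tissues. Each of the 9 genes had an r between 0.837 (Cela1) and 0.932 (Cel) with the sum of the others. Aire had -0.770 and Ptf1a 0.505. With each library taken as its deviation from its own group mean, the r of a gene with the others ran from -0.139 (Pla2g1b) to 0.328 (Clps). The 5 most similar genes were then Tnf (0.640), C130074G19Rik (0.551), Prdm8 (0.550), Tff1 (0.547) and Upp1 (0.547), none of them in the first list.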

How the data were processed

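The authors deposited 6 tables with a raw count for each gene and library. Per the submitters' processing notes, the tools were bcl2fastq, cutadapt, STAR 2.4.2a, HTSeq and DESeq2 with build mm10. Which annotation was counted, whether strand was used and how molecular identifiers were collapsed is not given in the sources used here. Each table lists only genes whose highest count was at least 6, and batch-adjusted columns in the files were not used. CPM was computed as the count divided by the library's plain total. Tests used edgeR 4.0.16 (R 4.3.3, limma 3.58.1): TMM factors, filterByExpr and the robust quasi-likelihood test, with all groups of a table in 1 fit and Benjamini-Hochberg adjustment over all tested genes at 0.05. A ± beside a log2 fold change is its standard error, and a ± beside a CPM is an SD over libraries. A group with 0 counts was compared at 3 counts over the group, and intervals for 1 to 3 counts are exact at 95% and cover counting error only. Alternatives were RLE factors, DESeq2 1.42.0, no filter, only the compared groups, TMM-scaled totals, a replicate block and each library left out. The fits were tested on simulated data. No 2 libraries of a table had the same counts. The members and gene lists were chosen with earlier results of these data known. Other genes named were the 6 of the acinar and transcription factor lists called in the most comparisons (ties by the higher mean CPM), Ptf1a, and, for likeness, the 5 highest correlations. Ctrl was chosen after its values were seen.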

Additional observations from a re-analysis of the deposited data

Results flagged for a closer look

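In groups of 4 to 10 libraries, 7 of 56 pairs of gene and group held 1 library far from the others by Dixon's criterion. Its chance rate of about 1 in 20 holds for normally distributed values. CPM from few counts need not be so distributed, and the 7 were not read against that rate. In B6 -/- libraries, replicate KO_436 stood high for Prss2 at 56.1 CPM, the other 3 lying at 5.21 CPM or less, and it held the 2 Cpa1 counts of the group (0.553 CPM). In B6 +/- libraries, Prss2 was high in 1 at 109.9 CPM and Pnliprp1 was low in another at 3.90 CPM. In +/C442G libraries, Cela3b was high in replicate 91 at 15.7 CPM and Ctrb1 in replicate 87 at 196.5 CPM. Among wild types of the +/C313Y set, Clps was low in replicate 80 at 7.39 CPM.

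Effects that differed between alleles in a direct test were as follows, on the log2 scale. Clps fell further in -/C313Y than in +/C313Y, by a difference of -3.86. It also fell further than in B6 -/- in Y86C/Y86C (-2.26), C313X/C313X (-2.91) and C442G/C442G (-2.05). Cela1 fell further in Y86C/Y86C than in -/- (-3.30). Each of these Clps and Cela1 calls was lost when some single libraries were left out, as given above. Cela3b fell further in +/C442G than in +/- (-1.59).

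The library that the labels put in no group is titled as a wild type and given the genotype -/-. It held more than any of the 3 wild types of its table for Ctrb1 (156.5 CPM, against 83.98 to 97.0 CPM), Pla2g1b (73.0 CPM, against 46.9 to 57.4 CPM), Cela3b (38.3 CPM, against 22.6 to 33.7 CPM) and Sycn (20.4 CPM, against 5.11 to 13.9 CPM). It held less than any of them for Cela1 (3.48 CPM, against 6.56 to 12.4 CPM), Clps (28.8 CPM, against 34.3 to 39.7 CPM), Cel (7.95 CPM, against 14.4 to 20.4 CPM) and Cpa1 (0 CPM, against 1.18 to 2.55 CPM). Its Cela1 lay inside the -/- range of 0.751 to 6.41 CPM. So did its Prss2 (42.7 CPM, -/- range 1.54 to 56.1 CPM) and its Cpa1 (-/- range 0 to 0.553 CPM). Its Prss2 and Pnliprp1 lay inside the wild-type ranges. All genes other than Cela1, Prss2 and Cpa1 lay above every -/- library. Summed over the 9 genes it held 383.6 CPM, against 291.7 to 362.6 CPM in +/+ and 12.8 to 78.8 CPM in -/-. It entered no test.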

How the results depend on the processing

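Of 1389 recomputed log2 fold changes of the members, 1300 kept their direction and their side of the threshold, 50 lost a call, 8 gained one and 31 changed sign. None of those that changed sign was called. With 1 library left out, their log2 fold changes ran as follows. In B6 +/- they ran from -0.0049 to 0.30 for Cela3b, -0.0066 to 0.20 for Pla2g1b and -0.79 to 0.27 for Prss2. In +/Y86C they ran from -0.41 to 0.041 for Clps, -0.32 to 0.32 for Prss2 and -0.46 to 0.16 for Sycn. In +/C313X they ran from -0.19 to 0.42 for Cel, -0.62 to 0.48 for Cela3b, -0.079 to 0.46 for Clps, -0.45 to 0.41 for Pla2g1b and -0.82 to 0.063 for Prss2, where a single heterozygote was assumed to vary like the other groups. In +/C442G they ran from -0.74 to 0.039 for Cel. In V303M/V303M they ran from -0.072 to 0.31 for Clps and -1.05 to 0.29 for Sycn. In +/V303M they ran from -0.19 to 0.28 for Cela3b, -0.068 to 0.23 for Clps, -0.31 to 0.47 for Pnliprp1 and -0.18 to 0.33 for Sycn, and Cela3b was at 0.0071 with RLE factors and 0.015 with only the compared groups. The counts of members called lower ran from 7 to 8 in B6 -/-, 8 to 9 in C313X/C313X, 4 to 6 in +/C442G and 0 to 1 in V303M/V303M with 1 library left out. Members called different ran from 0 to 2 for Y86C, 0 to 1 for C313X and 0 to 1 for C442G against the null in homozygotes, 1 to 2 for C442G in heterozygotes and 0 to 1 for the 2 C313Y effects. RLE factors gave 2 for C442G in heterozygotes, and the C313Y difference gave 0 with RLE factors, 0 with no filter and 0 without the libraries titled C313T. The cause was not tested.

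Over all genes, DESeq2 called 291 in +/Y86C (448 by edgeR), 41 in V303M/V303M (9), 2 in +/V303M (0), 21 for C313X against the null in heterozygotes (0) and 191 for the C313Y difference (59). With only the compared groups, 1384 were called in +/C313Y (2402) and 1 in V303M/V303M. Without the libraries titled C313T the C313Y difference gave 198, and V303M/V303M gave 0 to 60 with 1 library left out. Of the other acinar genes, 18 were called lower in B6 -/- with no filter (11), 10 in C313X/C313X with only the compared groups (16), and 1 each by DESeq2 in +/Y86C and V303M/V303M (0). Replicate numbers are shared in the -/C313Y set. Its same-numbered libraries had correlations of 0.0873, -0.0732 and 0.282 over 9645 genes, so the numbers were not taken to pair the libraries, and 2 of the 3 wild types correlated best with another number (0.181 and 0.190). A replicate block left 9 members called and gave 3608 genes over all (3138 without). Leaving out libraries for the differences between alleles, and the settings with no filter and without the libraries titled C313T for the C313Y difference, were chosen after seeing the data. At these totals a gene near 1 CPM rests on 1 to 7 counts, so small differences between such low values were not detectable.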
